A study of Saccharomyces cerevisiae with 12 samples.

Results

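The genes of the pentose phosphate pathway and of the NADP-dependent isocitrate dehydrogenases were described across 4 groups of chemostat cultures of Saccharomyces cerevisiae. The genes were chosen by symbol, with earlier results of these data known. They are ZWF1, GND1, GND2, SOL3, SOL4, TKL1, TAL1, RPE1, IDP1 and IDP2. These 10 are among the 5656 genes with a probe set of their own. The annotation gave each of these genes 1 probe set, so no choice among probe sets was needed. All 10 were measured above background on every array: their lowest signal was 12.4, and the highest signal of 19 probe sets for bacterial and mouse controls was 7.5 on any array. The name of the set is broader than cytosolic supply in 1 respect, since the IDP1 product is a mitochondrial enzyme.

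The 12 arrays came from 4 groups of 3 glucose-limited chemostats. The reference, CEN.PK113-7D (MATa MAL2-8C SUC2), was cultured both aerobically and anaerobically. IMZ305 was cultured aerobically and was made in CEN.PK102-12A, which shares MATa MAL2-8C SUC2 and carries ura3-52, his3-Δ1 and an allele of leu2. In IMZ305 the ald2-ald3 locus was replaced by LEU2, ald4 by HIS3, ald5 by KanMX4, ald6 by hphNT1, acs2 by natNT2 and acs1 by AmdS. Its plasmid, pUDE151, held URA3 and the Escherichia coli gene eutE, whose product turns acetaldehyde directly into acetyl-CoA. IMZ383, cultured anaerobically and made in the same background, had acs2 replaced by HIS3 and acs1 by LEU2. It carried plasmid pUDE204 with URA3 and the E. coli genes pflB and pflA, for pyruvate formate-lyase and its activating enzyme. Each strain effect therefore combines the deletions with the background, the markers and the plasmid. Every chemostat was kept at 30 °C and pH 5.0, with 0.1 culture volumes replaced per h. With air the feed held 7.5 g/L glucose. Without oxygen it held 20 g/L glucose, 10 mg/L ergosterol and 420 mg/L Tween 80, and another antifoam was used, so these cannot be told apart from oxygen supply.

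The oxidative branch of the pentose phosphate pathway begins with glucose 6-phosphate dehydrogenase (Zwf1), which reduces NADP to NADPH. 6-Phosphogluconolactonases (Sol3 and Sol4) then open the lactone, and 6-phosphogluconate dehydrogenase (Gnd1 and the minor isozyme Gnd2) makes a further NADPH and ribulose 5-phosphate. In the non-oxidative branch an epimerase (Rpe1), transketolase (Tkl1) and transaldolase (Tal1) interconvert pentose phosphates with glycolytic intermediates in reversible steps, and the branch supplies ribose 5-phosphate and erythrose 4-phosphate for biosynthesis. Cytosolic NADPH in yeast also comes from the acetaldehyde dehydrogenase Ald6 and from the isocitrate dehydrogenase Idp2, while Idp1 makes NADPH in the mitochondrion. ALD6 was among the genes deleted in IMZ305 and was intact in IMZ383.

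Signals are linear intensities as scaled by the authors, and they are comparable between arrays for 1 probe set but not between probe sets. Arrays of a group correlated at 0.966 to 0.987, and on each array 74.1% to 84.9% of yeast probe sets exceeded the highest of the controls. The 7 deleted genes read 0.1 to 2.1 in IMZ305. In IMZ383 ACS1 read 0.3 to 0.5 and ACS2 3.3 to 6.1. The hybridisation control BioB read 7.9 to 12.0 on 5 arrays (cultures 1 and 2 of the aerobic reference and the 3 of IMZ305) and 42.9 to 86.2 on the other 7. For ACT1, the signal of the 3' probe set over that of the 5' one is a measure of RNA integrity. It was 1.67 to 1.90 for the anaerobic reference but 1.37 to 1.47 for IMZ383. In the aerobic reference it was 1.96, 1.24 and 1.47, and in IMZ305 1.61 to 1.65. In these bulk samples, fewer cells with a transcript and less of it per cell cannot be told apart.

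**Figure D1:**
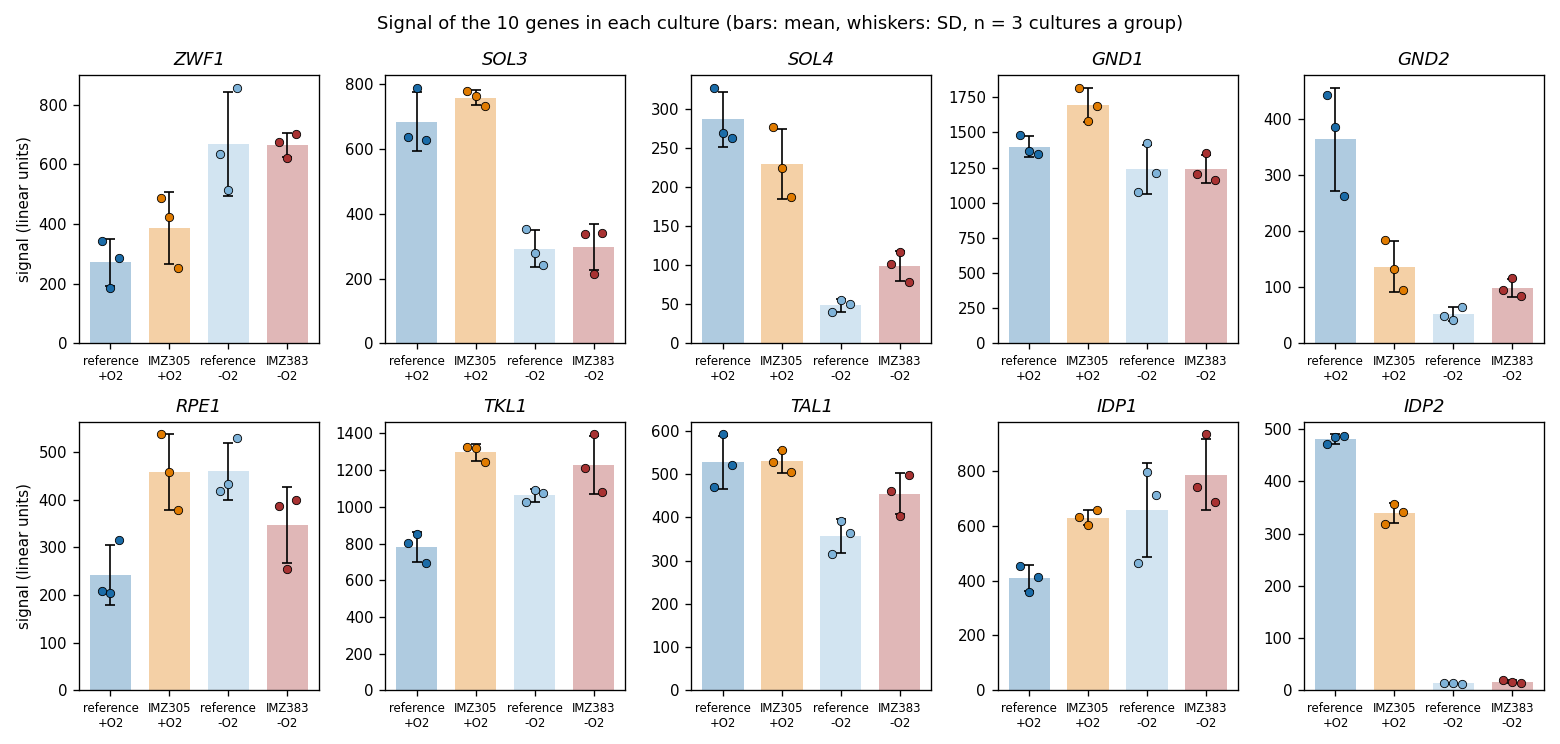
Signal of each of the 10 genes on a linear scale, 1 panel per gene with its own axis, with 1 point per culture, a bar from 0 to the mean of the 3 cultures of a group and whiskers for the SD. In the panel of IDP2 the 6 cultures with air lie at 319 to 487 and the 6 without oxygen at 12.4 to 19.4.

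The first step of the oxidative branch was read from ZWF1 (YNL241C). Its signal was 342, 185 and 288 in the 3 cultures of the aerobic reference and 487, 422 and 251 in IMZ305. Without oxygen it was 635, 513 and 857 in the reference and 675, 620 and 701 in IMZ383. Every culture without oxygen lay above every culture with air, and within each oxygen supply the reference and the engineered strain overlapped. The group means were 272 ± 79.5 (SD, n = 3) in the aerobic reference, 387 ± 122 in IMZ305, 668 ± 174 in the anaerobic reference and 665 ± 41 in IMZ383.

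The lactonase genes were read from SOL3 (YHR163W) and SOL4 (YGR248W). SOL3 was 636, 788 and 627 in the aerobic reference, 776, 764 and 733 in IMZ305, 353, 279 and 241 in the anaerobic reference and 337, 214 and 339 in IMZ383. The SOL3 values thus fell into a group of cultures with air and a group without, and the strains overlapped within each. SOL4 was 327, 269 and 263 in the aerobic reference, 277, 224 and 188 in IMZ305, 39.6, 55.2 and 50.8 in the anaerobic reference and 102, 117 and 78.6 in IMZ383. For SOL4 the order was aerobic reference, IMZ305, IMZ383 and anaerobic reference, and the first 2 groups alone overlapped among neighbours.

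6-Phosphogluconate dehydrogenase was read from GND1 (YHR183W), the major isozyme, and GND2 (YGR256W). GND1 had 1480.4, 1367 and 1348 in the aerobic reference, 1818, 1579.8 and 1691 in IMZ305, 1079, 1424 and 1209 in the anaerobic reference and 1207, 1354 and 1159.6 in IMZ383. The means of GND1 ran from 1237 ± 174 to 1696 ± 119, and the 3 IMZ305 cultures lay above all others. GND2 had 444, 386 and 263 in the aerobic reference, 184, 133 and 94.7 in IMZ305, 48.4, 42.4 and 65.8 in the anaerobic reference and 95.3, 116 and 85.0 in IMZ383. The aerobic reference was thus highest and the anaerobic reference lowest for GND2, without overlap with their neighbours, and IMZ305 and IMZ383 overlapped in the middle.

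In the non-oxidative branch, RPE1 (YJL121C), the gene of the epimerase, was 208, 204 and 315 in the aerobic reference, 537, 457 and 378 in IMZ305, 418, 433 and 528 in the anaerobic reference and 387, 255 and 398 in IMZ383. The aerobic reference was lowest on average, culture 3 of it reached into the range of IMZ383, and the next groups in the order overlapped one another. TKL1 (YPR074C), the gene of the main transketolase, was 803, 853 and 694 in the aerobic reference, 1326, 1320.5 and 1245 in IMZ305, 1025, 1094 and 1073 in the anaerobic reference and 1213, 1395 and 1079 in IMZ383. Each of the other 9 cultures read above the 3 of the aerobic reference. TAL1 (YLR354C), the gene of transaldolase, was 470.1, 592 and 519.8 in the aerobic reference, 528, 557 and 504 in IMZ305, 314, 392 and 363 in the anaerobic reference and 460.1, 404 and 499 in IMZ383. The anaerobic reference was the lowest group for TAL1, without overlap with IMZ383, and the remaining neighbours in the order overlapped.

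IDP1 (YDL066W), the gene of the mitochondrial isocitrate dehydrogenase, was 453, 359 and 415 in the aerobic reference, 631, 603 and 657 in IMZ305, 465, 796 and 715 in the anaerobic reference and 741, 935 and 689 in IMZ383. The aerobic reference was lowest, and the other 3 groups overlapped with their neighbours. IDP2 (YLR174W), the gene of the cytosolic enzyme, which is repressed by glucose, was 471, 486 and 487 in the aerobic reference, 319, 356 and 342 in IMZ305, 13.1, 14.0 and 12.4 in the anaerobic reference and 19.4, 16.4 and 14.0 in IMZ383. The cultures of the reference with air lay within a narrow range for IDP2, IMZ305 lay below them, and both groups without oxygen were near the lower end of the measurable signals and overlapped.

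The effect of oxygen supply was asked first, in the reference strain. Without oxygen IDP2 fell 36.6-fold, GND2 6.93-fold, SOL4 5.93-fold, SOL3 2.37-fold and TAL1 1.48-fold. ZWF1 rose 2.48-fold, RPE1 1.92-fold, IDP1 1.58-fold and TKL1 1.36-fold. The dehydrogenase at the entry of the oxidative branch thus rose while both lactonase genes and the minor isozyme of the last oxidative step fell, and in the non-oxidative branch RPE1 and TKL1 rose while TAL1 fell. GND1 had a log2 change of -0.18 (95% interval -0.45 to 0.08), and its cultures overlapped.

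Of the 10 genes, 4 rose and 5 fell, by limma at an adjusted p under 0.05, with a median log2 change of -0.374 over the 10. Over all 9275 probe sets tested, 11.0% were called higher and 23.3% lower without oxygen. Of these probe sets, 2443 had no gene named. With 1 probe set per gene, 2583 of 5656 genes were called in either direction. In each comparison the share called was higher over genes than over all probe sets. On the log2 scale, IDP2 changed by -5.19 (SE 0.117, adjusted p = 1.23e-08), GND2 by -2.79 (SE 0.286, adjusted p = 8.2e-05), SOL4 by -2.57 (SE 0.201, adjusted p = 1.59e-05) and SOL3 by -1.24 (SE 0.202, adjusted p = 0.00131). ZWF1 changed by 1.31 (SE 0.301, adjusted p = 0.00837), and RPE1 by 0.94 (SE 0.233, adjusted p = 0.0119). These 6 calls held under every alternative processing and with any 1 array left out. The other 3 were smaller: TAL1 changed by -0.56 (adjusted p = 0.00671), TKL1 by 0.45 (adjusted p = 0.013) and IDP1 by 0.66 (adjusted p = 0.0308).

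The scaling of the arrays decides part of this comparison. The median log2 change of all probe sets was -0.178 as deposited and 0.217 after centring each array on its median, and the share of higher calls was 32.1% as deposited, 48.9% after quantile normalization and 67.6% after median centring. Median centring ended the call of TAL1 (log2 change -0.17) and turned GND1 to 0.21, without a call. Quantile normalization ended the call of TKL1 (0.21, adjusted p = 0.177) and added a call of GND1, lower by -0.41 (adjusted p = 0.0318). The IDP1 call was lost in a fit to these 2 groups alone (adjusted p = 0.106) and without culture 2 or 3 of the aerobic reference (0.089 and 0.064) or culture 2 or 3 of the anaerobic reference (0.102 without either).

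**Figure D2:**
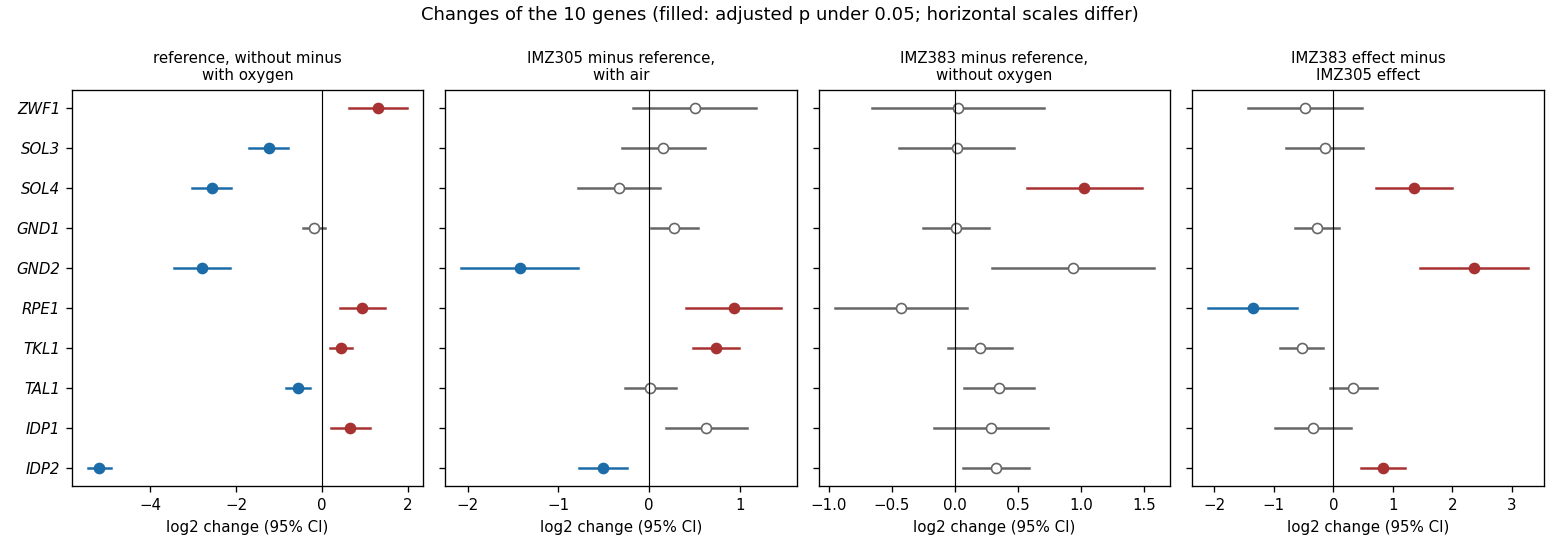
Log2 change of each of the 10 genes in the 3 comparisons between groups and in the difference between the strain effects, with 95% intervals; filled points passed an adjusted p under 0.05, and the horizontal scales differ. The changes with oxygen supply span -5.19 for IDP2 to 1.31 for ZWF1, and the IMZ383 column has 1 filled point, SOL4 at 1.03.

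With air, IMZ305 was compared with the reference. In IMZ305 TKL1 rose 1.66-fold and RPE1 1.9-fold, while GND2 fell 2.69-fold and IDP2 1.42-fold. Both genes that rose belong to the non-oxidative branch. Both that fell encode NADPH-forming dehydrogenases, the minor one of the last oxidative step and the cytosolic isocitrate enzyme. GND1 and IDP1, also of NADPH-forming dehydrogenases, had log2 changes of 0.28 and 0.63 without a call, and TAL1 had 0.01. ZWF1, the gene of the first NADPH-forming step, had a log2 change of 0.50 (95% interval -0.18 to 1.18, adjusted p = 0.332), and its groups overlapped.

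Of the 10 genes, 2 were called higher and 2 lower, and 6 passed an unadjusted p under 0.05. Over all probe sets, 6.09% were called higher and 8.3% lower, and 2612 of 9275 passed an unadjusted p under 0.05. With 1 probe set per gene, 1181 of 5656 genes were called in either direction. Over the 10 genes the median log2 change was 0.217, and over all probe sets 0.0. The log2 changes of the called genes were 0.73 for TKL1 (SE 0.112, adjusted p = 0.00333), 0.93 for RPE1 (SE 0.233, adjusted p = 0.0289), -1.43 for GND2 (SE 0.286, adjusted p = 0.0117) and -0.51 for IDP2 (SE 0.117, adjusted p = 0.0213). TKL1 kept its call under every alternative and with any 1 array left out. GND2 lost it in the fit to these 2 groups alone (adjusted p = 0.0645). RPE1 lost it in that fit (0.0775) and without culture 1 or 2 of the aerobic reference (0.0877 and 0.0746) or of IMZ305 (0.105 and 0.0874). IDP2 lost it after median centring (0.0691) and without culture 3 of the aerobic reference (0.0522) or culture 1 or 2 of IMZ305 (0.0801 and 0.0511).

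The genes without a call in IMZ305 were also bounded by their intervals. IDP1 had a log2 change of 0.63 (95% interval 0.18 to 1.08, adjusted p = 0.0676); its groups did not overlap, and it was called after quantile normalization, with 1 probe set per gene, in the fit to these groups alone, with an intensity trend, with array weights and without culture 1 of the anaerobic reference. GND1 also had groups that did not overlap, with a log2 change of 0.28 (95% interval 0.015 to 0.54, adjusted p = 0.157). SOL4 had -0.33 (95% interval -0.78 to 0.12), SOL3 0.16 (-0.30 to 0.61) and TAL1 0.01 (-0.27 to 0.29). Culture 3 was the only array of the aerobic reference with the high BioB signal. Without it, the log2 changes were -1.65 for GND2, 0.65 for TKL1, 1.13 for RPE1 and -0.50 for IDP2.

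Without oxygen, IMZ383 was compared with the reference. SOL4, the lactonase gene that fell most between the references, rose 2.04-fold, from 48.5 ± 8.04 to 99.2 ± 19.3. No other gene of the 10 passed the test. GND2 came nearest, with means of 52.2 ± 12.2 and 98.8 ± 15.9, a log2 change of 0.93 (95% interval 0.29 to 1.58, adjusted p = 0.147) and groups that did not overlap.

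Of the 10 genes, 1 was called higher and 0 lower in IMZ383 by limma, and 4 passed an unadjusted p under 0.05, all with positive changes. Over all probe sets, 1.69% were called higher and 0.593% lower, and 1426 of 9275 passed an unadjusted p under 0.05 in either direction. With 1 probe set per gene, 232 of 5656 genes were called in either direction. Over the 10 genes the median log2 change was 0.242, against 0.0582 over all probe sets. The share of higher calls was 74.1% as deposited, 60.2% after quantile normalization and 54.4% after median centring. SOL4 changed by 1.03 on the log2 scale (SE 0.201, adjusted p = 0.0327). The call was lost after quantile normalization (0.92, adjusted p = 0.069), after median centring (0.91, adjusted p = 0.111) and in the fit to these 2 groups alone (adjusted p = 0.121). It was also lost without culture 2 of IMZ305, without any 1 culture of the anaerobic reference and without culture 1 or 2 of IMZ383, with log2 changes of 0.89 to 1.13 and adjusted p values of 0.0569 to 0.102. The ACT1 ratio differed between these groups without overlap, and its part in the result was not tested.

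For 3 genes the estimate was close to 0: the 95% interval of the log2 change was -0.66 to 0.70 for ZWF1, -0.25 to 0.27 for GND1 and -0.44 to 0.47 for SOL3. TAL1 had 0.35 (0.071 to 0.63, adjusted p = 0.211), with groups that did not overlap, and IDP2 0.32 (0.060 to 0.59, adjusted p = 0.223), with groups that did. RPE1 had -0.43 (-0.95 to 0.097, adjusted p = 0.427), and its groups did not overlap either. IDP1 had 0.28 and TKL1 0.20, with adjusted p values of 0.559 and 0.44.

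The comparison of strain effects asks whether a gene moved alike in IMZ383 and IMZ305, each against the reference at the same oxygen supply. The difference is the IMZ383 effect minus the IMZ305 effect, and strain and oxygen both differ between them. GND2, SOL4 and IDP2 had higher effects in IMZ383, by 5.14-fold, 2.56-fold and 1.78-fold, and RPE1 had a lower effect, by 2.56-fold. GND2 differed by 2.36 on the log2 scale (SE 0.404, adjusted p = 0.00832), since it fell in IMZ305 and its value in IMZ383 was 0.93. SOL4 differed by 1.36 (adjusted p = 0.0188), IDP2 by 0.83 (adjusted p = 0.0154) and RPE1 by -1.36 (adjusted p = 0.0354).

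Of the 10 differences, 3 were thus called higher and 1 lower, and over all probe sets 5.92% were called higher and 2.95% lower. With 1 probe set per gene, 821 of 5656 genes were called in either direction. Among all probe sets called, higher calls made up 66.7% as deposited, 56.5% after quantile normalization and 48.9% after median centring. The GND2 call held under every alternative and with any 1 array left out. SOL4 lost its call after median centring (adjusted p = 0.0652) and without culture 2 of IMZ305 (0.0513), and IDP2 lost it after quantile normalization and median centring (0.0529 and 0.0827). The RPE1 call was lost without culture 1 or 2 of the aerobic reference, 1 or 2 of IMZ305, 2 or 3 of the anaerobic reference or 2 of IMZ383, with adjusted p values of 0.0585 to 0.0879. TKL1 had a difference of -0.53 (adjusted p = 0.0707), which was called with array weights and without culture 2 of IMZ383 (0.0188 and 0.0383). The other 5 genes had adjusted p values of 0.273 to 0.817.

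These comparisons share arrays, so their values are set side by side and not read as separate evidence. The IMZ305 effect and the oxygen effect share the aerobic reference, the IMZ383 effect and the oxygen effect share the anaerobic reference, and the difference contains all of them. For GND2 the 3 log2 changes were -1.43 in IMZ305, 0.93 in IMZ383 and -2.79 with the loss of oxygen. For SOL4 they were -0.33, 1.03 and -2.57, for RPE1 0.93, -0.43 and 0.94, and for IDP2 -0.51, 0.32 and -5.19. TKL1 gave 0.73, 0.20 and 0.45.

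Isozyme pairs of 1 step were compared as the log2 ratio of their signals, of which the change between groups has a meaning and the level has none. Ratios are given relative to the mean of the aerobic reference. GND2 over GND1 was 0.24, 0.15 and -0.39 in the aerobic reference, -1.33, -1.60 and -2.18 in IMZ305, -2.50, -3.10 and -2.23 in the anaerobic reference and -1.69, -1.57 and -1.80 in IMZ383. The ratio was thus highest in the aerobic reference and lowest in the anaerobic reference, and IMZ305 and IMZ383 overlapped. The ratio changed by -1.70 in IMZ305, by 0.92 in IMZ383 and by -2.61 with the loss of oxygen, each without overlap. Each had p = 0.1 in a two-sided exact permutation test, which is the smallest p that 3 arrays against 3 can give.

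SOL4 over SOL3 was 0.29, -0.30 and 0.0015 in the aerobic reference, -0.23, -0.51 and -0.71 in IMZ305, -1.90, -1.08 and -0.99 in the anaerobic reference and -0.47, 0.39 and -0.85 in IMZ383. It changed by -0.49 in IMZ305 with overlap (exact permutation p = 0.2), and by 1.01 in IMZ383 and -1.33 with the loss of oxygen without overlap (exact permutation p = 0.1 each). IDP2 over IDP1 changed by -1.14 in IMZ305 and by -5.85 with the loss of oxygen, without overlap (exact permutation p = 0.1 each), and by 0.04 in IMZ383 (exact permutation p = 0.9). The ratio of the cytosolic to the mitochondrial gene was lower in every culture without oxygen than in every culture with air.

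**Figure D3:**
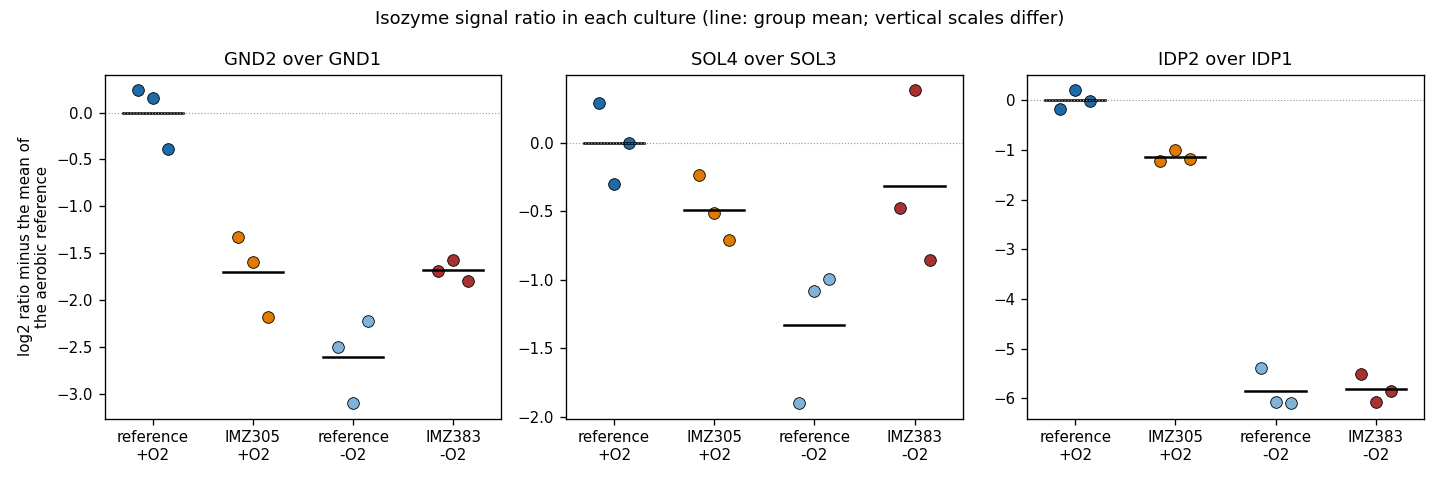
Log2 ratio of the signals of GND2 over GND1, SOL4 over SOL3 and IDP2 over IDP1 in each culture, centred on the mean of the aerobic reference, with a line at the mean of each group of 3 and vertical scales that differ. GND2 over GND1 has group means of -1.70 in IMZ305, -2.61 in the anaerobic reference and -1.68 in IMZ383.

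Genes with the most similar profile were sought for GND2, SOL4, TKL1, RPE1 and IDP2, the genes called in at least 2 of the 4 comparisons, by the root mean square difference of centred log2 signals over the 12 arrays. Among 5655 other genes, GND2 was nearest to PCA1 (0.322), TKL2 (0.330) and DAL3 (0.344), against a median of 1.02 over all genes. TKL2 encodes the minor transketolase, and its group means were 138, 62.5, 21.9 and 31.8 in the aerobic reference, IMZ305, the anaerobic reference and IMZ383. SOL4 was nearest to NCE102 (0.249), TVS1 (0.255) and GRE2 (0.263), against a median of 0.994. GND2 and SOL4 lay 0.47 apart, with 20 genes nearer to GND2 and 65 genes nearer to SOL4. IDP2 was nearest to FBP1 (0.287), the gene of gluconeogenic fructose-1,6-bisphosphatase, to JEN1 (0.404), a lactate transporter gene, and to GRE1 (0.432; median 2.31).

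RPE1 was nearest to SHB17 (0.181; median 0.647), the gene of sedoheptulose-1,7-bisphosphatase, which feeds the non-oxidative branch, then to UTH1 (0.220) and RPL37B (0.230). The group means of SHB17 were 291, 468, 481 and 417 in the same order of groups. TKL1 was nearest to EGH1 (0.152), IMP3 (0.156) and YHR020W (0.157; median 0.521). These distances describe 12 arrays that share 4 conditions. On the genome, SOL4 and GND2 lie on chromosome VII with 7 protein-coding genes between them, and SOL3 and GND1 lie on chromosome VIII with 20 between them.

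The wider pathway was followed in 13 other genes of pentose phosphate and ribose metabolism. Without oxygen 2 of them rose and 5 fell, beside 11.0% higher and 23.3% lower over all probe sets. NQM1, a paralog of TAL1, fell 12.9-fold, from 468 ± 52.4 to 36.4 ± 6.19 (adjusted p = 2.21e-06), and TKL2, the paralog of TKL1, fell 6.61-fold (adjusted p = 0.000147). The ribose-phosphate pyrophosphokinase genes PRS4, PRS5 and PRS2 fell 1.79-fold, 1.37-fold and 1.48-fold, and median centring ended these 3 calls. The PRS2 call was also lost after quantile normalization and in a fit to these 2 groups alone. The genes that rose were SOL2 (2.3-fold) and SHB17 (1.67-fold), and the SHB17 call was lost without culture 1 or 2 of the aerobic reference or any 1 culture of the anaerobic reference. The median log2 change of the 13 was -0.382, against -0.178 over all probe sets.

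In IMZ305, 0 of the 13 rose and 3 fell, by limma, beside 6.09% higher and 8.3% lower over all probe sets. At an unadjusted p under 0.05, 4 were higher and 4 lower, beside 2612 of 9275 probe sets in either direction. The median log2 change of the 13 was 0.018. NQM1 fell 2.76-fold, from 468 ± 52.4 to 170 ± 15.2 (adjusted p = 0.0026), TKL2 2.24-fold (adjusted p = 0.0347) and PRS2 1.45-fold (adjusted p = 0.0316). The TKL2 call was lost after quantile normalization and median centring, without any 1 of the 6 arrays compared and without culture 2 of the anaerobic reference. The NQM1 call held under every alternative, and it alone remained after median centring and without culture 2 of the aerobic reference or culture 1, 2 or 3 of IMZ305. In IMZ383, 0 were called in either direction by limma, beside 1.69% higher and 0.593% lower over all probe sets. At an unadjusted p under 0.05, 2 passed, both with positive changes, beside 1426 of 9275 probe sets in either direction. The median log2 change of the 13 was 0.0793, against 0.0582 over all probe sets. The nearest to a call was NQM1, with a log2 change of 0.91 (adjusted p = 0.0665). Without culture 3 of IMZ383, and with array weights, an intensity trend, a filter on low signal or 1 probe set per gene, 1 gene was called. Between the strain effects NQM1 differed by 2.37 and TKL2 by 1.76 on the log2 scale. The TKL2 call of that difference was lost after quantile normalization and median centring, and without any 1 culture of the aerobic reference or of IMZ305, culture 2 of the anaerobic reference, or culture 1 or 2 of IMZ383.

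Of 9 other genes of NADPH and NADP supply, ALD4, ALD5 and ALD6 were deleted in IMZ305 and fell there by construction. Among the remaining 6, IDP3, the gene of the peroxisomal isocitrate dehydrogenase, fell 2.71-fold in IMZ305 (adjusted p = 0.00731) and the NADH kinase gene YEF1 3.65-fold (adjusted p = 0.0101). The IDP3 call was lost in a fit to IMZ305 and the aerobic reference alone. ADE3, of cytosolic one-carbon metabolism, rose 1.41-fold and MAE1, the mitochondrial malic enzyme gene, 1.78-fold. Both calls were lost without culture 1 or 2 of IMZ305. That of ADE3 was also lost after median centring and without culture 3 of the aerobic reference, and that of MAE1 in a fit to these 2 groups alone and without culture 1 of the aerobic reference. The median log2 change of the 9 was -1.44 in IMZ305 with the deleted genes counted, -0.114 in IMZ383 and -0.262 with the loss of oxygen. In IMZ383, where ALD6 was intact, ALD6 fell 3.52-fold, from 1053 ± 150 to 301 ± 61.8 (adjusted p = 0.00166), and ALD4 2.16-fold (adjusted p = 0.0394, lost with no floor, without any 1 of the 6 arrays of this comparison and without culture 1 of the aerobic reference or of IMZ305). With the loss of oxygen 3 rose and 4 fell (11.0% and 23.3% over all probe sets), among them MAE1 5.75-fold and ADE3 2.15-fold upward, and POS5, the mitochondrial NADH kinase gene, 3.54-fold and IDP3 11.6-fold downward. The effects differed between strains in 6 of the 9 toward IMZ383, 3 of them the deleted ALD genes, and in 1, ADE3, toward IMZ305, beside 5.92% and 2.95% over all probe sets. The count of 7 became 3 without culture 1 or 2 of IMZ305, and these 3 were the deleted ALD genes. It became 4 without culture 2 or 3 of the anaerobic reference, when POS5 remained beside the ALD genes.

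Among 33 genes of enzymes that use NADPH, 8 rose and 5 fell in IMZ305, beside 6.09% and 8.3% over all probe sets. NCP1, the reductase that serves sterol synthesis, rose 2.78-fold and ARI1, an aldehyde reductase gene, 2.54-fold, while GDH3, a glutamate dehydrogenase gene, fell 5.13-fold and AYR1 2.33-fold. The count of 13 dropped to 6 without culture 1 of IMZ305, to 7 without culture 2 of it and to 8 without culture 1 of the aerobic reference or in a fit to these 2 groups alone. In IMZ383, 3 rose and 2 fell (1.69% and 0.593% over all probe sets): HMG1, of sterol synthesis, rose 2.32-fold, GRE2 2.09-fold and GCY1 2.39-fold, GDH3 fell 2.54-fold, and ADH7 was near background, above the highest control on 1 array of the reference and 0 of IMZ383. The count of 5 became 2 without culture 2 of IMZ383, and 3 without culture 1 or 3 of it or culture 3 of the anaerobic reference, or in a fit to these 2 groups alone. The GCY1 call was lost after quantile normalization, in that fit and without any 1 culture of IMZ383, and the GDH3 call without culture 3 of the anaerobic reference or culture 2 of IMZ383. With the loss of oxygen 8 rose and 9 fell, beside 11.0% and 23.3% over all probe sets, and 13 to 18 were called with each array left out. ADH7, near background, was 1 of the 8 that rose, with means of 1.17 in the aerobic and 3.3 in the anaerobic reference. GRE2 fell 6.95-fold, HMG1 5.99-fold, TRR2 3.92-fold and GCY1 5.06-fold. The strain effects differed in 10 of the 33, with 6 higher and 4 lower in IMZ383 (5.92% and 2.95% over all probe sets), and in 6 without culture 2 of the anaerobic reference. The median log2 change of the 33 was 0.0481 in IMZ305, 0.0267 in IMZ383 and -0.0176 with the loss of oxygen.

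Of 13 genes of regulators with described roles at these genes, 7 fell and 2 rose without oxygen, beside 23.3% and 11.0% over all probe sets. The activator genes of non-fermentative metabolism SIP4, ADR1 and CAT8 fell 19.9-fold, 6.43-fold and 5.87-fold, and YAP1, of the oxidative stress response, fell 2.75-fold. In the anaerobic reference SIP4 and CAT8 read 10.0 and 11.8, near the highest control signal of 7.5 but above the controls on all 3 arrays. STB5, whose product is known as an activator of pentose phosphate genes, fell 2.56-fold, from 55.7 ± 15.3 to 21.6 ± 5.20 (adjusted p = 0.00524). The genes that rose were GCR1, 1.53-fold, and SKN7, 1.36-fold, and the SKN7 call was lost in 16 of the alternatives and arrays left out. RTG3 fell 1.61-fold, and its call was lost after quantile normalization and median centring. In IMZ305 ADR1 fell 2.16-fold (adjusted p = 0.00346), and no other of the 13 was called (8.3% lower and 6.09% higher over all probe sets); without culture 2 of the aerobic reference or culture 1 of the anaerobic reference 2 were called. In IMZ383 SIP4 rose 2.98-fold, from 10.0 ± 1.68 to 29.8 ± 4.79 (adjusted p = 0.00308), and it was the only one called (1.69% higher over all probe sets). The strain effects differed for SIP4 and ADR1, both higher in IMZ383. The median log2 change of the 13 was -0.69 with the loss of oxygen, -0.132 in IMZ305 and 0.279 in IMZ383.

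**Figure D4:**
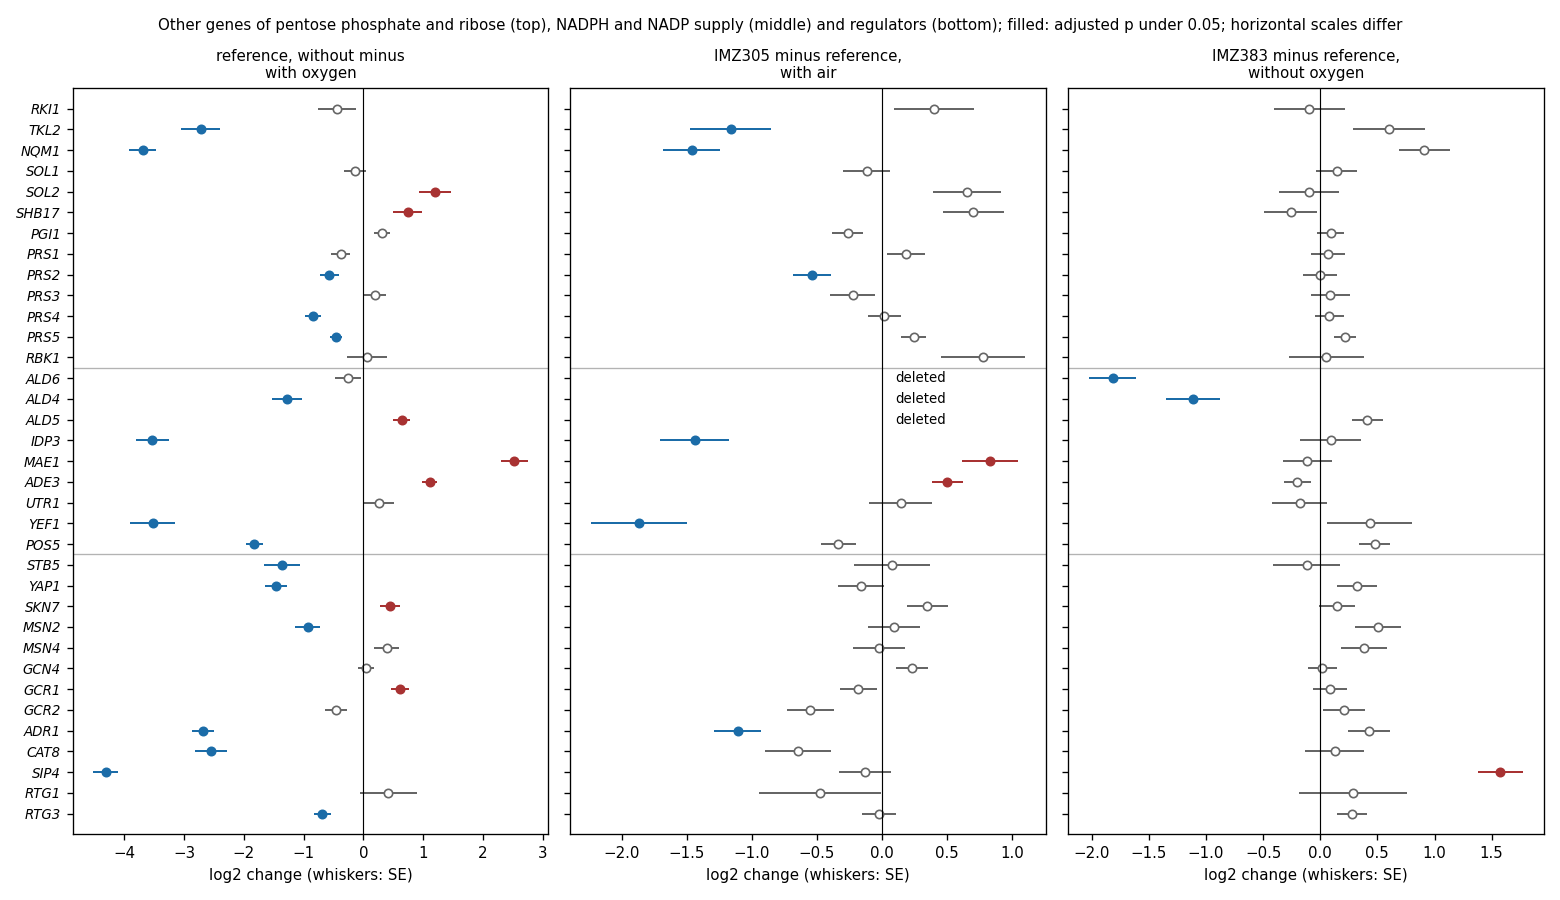
Log2 change, with whiskers for the SE, of the 13 other pentose phosphate and ribose genes, the 9 other NADPH and NADP supply genes and the 13 genes of regulators in the 3 comparisons between groups, with 1 point per gene and filled points for an adjusted p under 0.05; the horizontal scales differ between panels. NQM1 is the lowest of the 13 both in IMZ305 (-1.46) and with the loss of oxygen (-3.69).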

How the data were processed

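The authors deposited linear intensities, 1 value per probe set and culture, from Affymetrix arrays. Per the labels' protocols, a 3' in vitro transcription kit turned 200 ng of total RNA into biotin-labelled RNA. How images were read, summarised and scaled is not given in the sources used here. Trimmed means of the deposited arrays were nearly equal (149.93 to 149.95), so every change is relative to the level of its array, and a common shift of the transcriptome would not show.

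Of 9335 probe sets, 60 controls were left out and 9275 tested. The platform annotation gave 6504 of these 1 gene, 328 several and 2443 none. Signals were raised to a floor of 1.1 (their 10th percentile), taken to log2 and fitted with limma 3.58.1 in R 4.3.3, with 1 mean per group over all 12 arrays and two-sided moderated tests. Benjamini-Hochberg adjustment ran over all 9275 probe sets, and a call is an adjusted p below 0.05, for which "rose" and "fell" are kept. The labels number the chemostats of a group. The limma p-values measure the spread between cultures within groups, pooled over the 4 groups of 3 cultures. Each group holds 1 strain. The number of arrays limits the precision.

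The 10 genes, the other gene lists and the naming rule were chosen with earlier results of these data known. The rule named the 10 genes, up to 4 called genes per list and comparison by adjusted p, the deleted genes, and the 3 nearest profiles of genes called in at least 2 comparisons. PRS2, SOL2 and SHB17 without oxygen, STB5, NQM1 in IMZ383 and ADH7, and genes named beyond the 4, were chosen after their values were seen. Gene order on chromosomes came from the RefSeq annotation of assembly R64. Sequences were not analysed here. The scripts were tested on simulated data. Alternatives were other scalings, floors, filters, fits and arrays left out.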

Additional observations from a re-analysis of the deposited data

Results flagged for a closer look

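The strain effects of 4 of the 10 genes differed between IMZ383 and IMZ305 by limma's test of the difference itself, and these results are listed here for that reason. GND2 differed by 2.36 on the log2 scale, SOL4 by 1.36 and IDP2 by 0.83, each with the higher effect in IMZ383, and RPE1 differed by -1.36. Of these calls, only that of GND2 held under every alternative and with any 1 array left out. The IDP2 call was lost after quantile normalization and median centring, and its signals without oxygen, 12.4 to 19.4, were near background. The strains also differ in oxygen supply, feed and deletions, which cannot be told apart here. GND2 was lower in all 3 cultures of IMZ305 and higher in all 3 of IMZ383 than in any culture of the matching reference.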

How the results depend on the processing

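Of 40 changes (10 genes in 4 comparisons), 22 kept their direction and their side of the threshold under every alternative and with each array left out, and so did 8 of the 18 called changes. In IMZ383 minus the reference, the 1 call among the 10 genes became 0 with quantile normalization, median centring, a fit to the 2 groups compared and the replicate block. The replicate block left 4, 8 and 4 calls among the 10 genes in the IMZ305, oxygen and difference comparisons. Among the calls it ended were those of SOL4 in IMZ383 (adjusted p = 0.0563) and of IDP1 with the loss of oxygen (0.0516). It also ended those of TKL2 and MAE1 in IMZ305 and of TKL2, IDP3, YEF1 and POS5 in the difference. The labels do not state that culture numbers pair the cultures. Deviations of same-numbered cultures from their group means correlated at -0.0299 to 0.0479 in the 3 comparisons between groups. Median centring left 2 called differences between the strain effects. Probe sets called over the whole array went from 1335 to 832 (IMZ305) and from 212 to 74 (IMZ383) in fits to the 2 groups compared, and with array weights to 393 (IMZ383) and from 823 to 1449 (difference). Changes near 0 reversed in IMZ383: ZWF1 to -0.095 with median centring and -0.063 with array weights, GND1 to -0.11 and -0.011, and SOL3 to -0.10 with median centring and -0.020 with quantile normalization; GND1 without oxygen became 0.21 with median centring. The cause was not tested. With each array left out, calls among the 10 genes ranged from 2 to 5 in IMZ305, 0 to 1 in IMZ383 and 2 to 4 for the difference, and probe sets called from 666 to 1323, 133 to 250 and 479 to 997. The lowest counts came without culture 2 of IMZ305 (666 and 479) and culture 3 of the anaerobic reference (133). Log2 changes then ranged from -0.068 to 0.098 for TAL1 in IMZ305, from -0.15 to 0.22 for ZWF1, -0.085 to 0.12 for GND1 and -0.11 to 0.23 for SOL3 in IMZ383, from -0.27 to 0.079 for the SOL3 difference, and from -0.12 to 0.27 for IDP2 over IDP1 in IMZ383. A fit to 2 groups gives no difference between strain effects. Other probe sets of a gene could not be tried, since each of the 10 has 1, and the promoter motifs were not searched. Signals without oxygen near 12.4 for IDP2 are the closest of the 10 to background (7.5).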
